A study of Homo sapiens with 2 samples.

Results

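The 159 genes described here were protein-coding genes named ZNF and a number, selected on their mean level over the 2 libraries, which had to reach 5 TPM, out of 511 such ZNF genes and 58174 gene identifiers in all. TPM is a transcript level per length, scaled to the same total in every library. The libraries were made from PC3, an established human prostate cancer cell line, transfected with a control siRNA or with siRNA against POH1, the proteasome deubiquitinase encoded by PSMD14. There was 1 library per group, so every difference below is between 2 libraries, has no replicate check and carries no test, and an effect of culture or library preparation cannot be told apart from that of the siRNA. The time after transfection, the dose and the siRNA sequences were not given in the sources used here.

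Zinc fingers of the C2H2 kind are short loops held by a zinc ion between paired cysteines and histidines, and rows of them read DNA sequence. In many ZNF proteins a KRAB domain near the amino end binds TRIM28 (KAP1), which brings in SETDB1, HP1 proteins and the NuRD complex to lay down H3K9 methylation and silence transposable elements and genes. A SCAN domain, in another subset, pairs the proteins with each other. The symbol ZNF itself promises only a zinc finger, and some proteins that carry it act on ribosomes, RNA or the cytoskeleton.

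The name KRAB-type covered fewer than every second member. A search of the translated coding sequences found a KRAB domain in 74 of the 159 genes (46.5%) and none in the other 85. A gene was counted when any of its coding transcripts matched. In some genes few did, such as 1 of 8 transcripts of ZNF263, and gene TPM does not show which transcript was made. A SCAN domain was found in 11 members, 9 of them with KRAB. The KRAB members had a median of 11 C2H2 fingers and the others a median of 7, up to 31 fingers in ZNF142. In 7 members no C2H2 match was found: ZNF185, ZNF330, ZNF365, ZNF503, ZNF703, ZNF839 and ZNF862, the last of which has a KRAB domain. The genes are therefore called ZNF genes here, and the KRAB genes are given apart.

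Apart from the 7 genes just named, all members had a C2H2 finger match. The coding stretches below, 63 bases from the cysteine of 1 finger to its last histidine, are shown because they come from the KRAB genes that were farthest apart between the libraries in either direction. They encode residues 133 to 153 of ZNF331 and residues 102 to 122 of ZNF791 (GENCODE 29 coding sequences, 5′ to 3′), and capitals mark the codons of the paired cysteines and histidines.
ZNF331: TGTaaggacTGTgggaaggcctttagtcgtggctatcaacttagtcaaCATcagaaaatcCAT
ZNF791: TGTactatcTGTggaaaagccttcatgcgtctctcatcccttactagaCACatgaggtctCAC
These stretches were identical at 35 of 63 bases (55.6%). ZNF331, which has 12 fingers, was higher in the POH1 siRNA library, and ZNF791, which has 17, was lower.

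The promoters of 4 members are shown next because these genes lie at the ends of the range of differences described below. Each is a RefSeq window of 300 bases (GRCh38.p14, plus strand), from 250 bases before the transcript start to 50 after it: chr16:30378062-30378361 for ZNF48, chr19:53520764-53521063 for ZNF331, chr10:45000673-45000972 for ZNF22 and chr19:12610670-12610969 for ZNF791. Capitals mark the ETS core CCGGAAG, the GC box GGGCGG and a 13-base word repeated in the ZNF331 promoter, TACATTTCCCAGA, each on either strand.
ZNF48: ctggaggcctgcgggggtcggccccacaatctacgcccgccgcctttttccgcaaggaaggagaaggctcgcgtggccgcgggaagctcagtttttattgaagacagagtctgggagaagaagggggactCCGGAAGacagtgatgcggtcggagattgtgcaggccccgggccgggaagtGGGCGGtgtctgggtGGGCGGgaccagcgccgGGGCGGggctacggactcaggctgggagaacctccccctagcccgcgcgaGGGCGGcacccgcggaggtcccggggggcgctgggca
ZNF331: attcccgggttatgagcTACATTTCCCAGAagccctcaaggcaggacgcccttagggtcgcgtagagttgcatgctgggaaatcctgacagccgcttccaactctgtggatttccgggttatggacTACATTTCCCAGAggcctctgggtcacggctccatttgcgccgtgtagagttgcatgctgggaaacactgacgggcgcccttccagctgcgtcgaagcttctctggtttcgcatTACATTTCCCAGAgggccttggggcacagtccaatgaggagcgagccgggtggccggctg
ZNF22: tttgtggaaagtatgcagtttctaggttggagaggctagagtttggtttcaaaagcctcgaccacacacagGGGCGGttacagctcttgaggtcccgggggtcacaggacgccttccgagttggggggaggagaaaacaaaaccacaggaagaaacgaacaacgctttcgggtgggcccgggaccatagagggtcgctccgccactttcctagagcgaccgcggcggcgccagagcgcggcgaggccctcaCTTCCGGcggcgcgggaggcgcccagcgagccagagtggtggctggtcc
ZNF791: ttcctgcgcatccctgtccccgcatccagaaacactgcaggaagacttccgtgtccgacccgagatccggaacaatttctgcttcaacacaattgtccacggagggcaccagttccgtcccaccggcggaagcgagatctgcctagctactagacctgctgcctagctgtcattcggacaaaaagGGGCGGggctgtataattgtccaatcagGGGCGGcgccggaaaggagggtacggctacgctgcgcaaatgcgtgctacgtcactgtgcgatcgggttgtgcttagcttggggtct
ZNF48 and ZNF331 were higher in the POH1 siRNA library and ZNF22 and ZNF791 lower. ZNF48 and ZNF22 each hold 1 ETS core, ZNF48 holds 4 GC boxes, and ZNF331 holds the repeated word in 3 places.

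Both libraries had the markers of the labelled cells. KRT8 was at 517 TPM with control siRNA and 556 with POH1 siRNA, and EPCAM at 124 and 141. KLK3, the gene of prostate-specific antigen, was listed at 0 in both. Of 4 markers of other cells, ALB of liver was at 0 in both, PTPRC of blood cells at 0 and 0.057, PECAM1 of endothelium at 4.90 and 3.88, and COL1A1 of fibroblasts at 30.9 and 47.8; their part in the results was not tested. In bulk RNA, fewer cells of a kind and less RNA per cell cannot be told apart. PSMD14, the targeted gene, had 50.9 TPM with control siRNA and 35.1 with POH1 siRNA, 69.0% of control.

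ZNF genes were mostly low in these cells, and the KRAB genes the lowest of them. Of the 511 genes, 80 were listed at 0 in both libraries, 315 reached a mean of 1 TPM, 159 (31.1%) reached 5 and 45 reached 20. Among the 348 ZNF genes with a KRAB domain, 74 (21.3%) reached 5 TPM, 11 reached 20 and 0 reached 50, with a median of 1.44 TPM. Among the 163 without, 85 (52.1%) reached 5 TPM, 34 reached 20 and 11 reached 50, with a median of 5.24 TPM. In a hand-made list of 353 other transcription factor genes, 239 (67.7%) reached 5 TPM with a median of 10.2, and of all 19762 protein-coding genes 46.5% did.

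**Figure D1:**
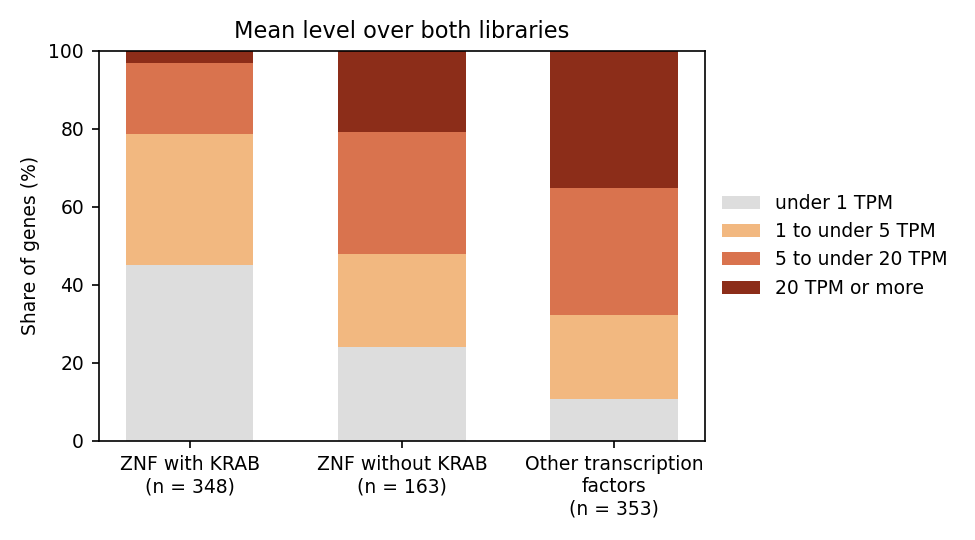
Share of genes (%) by mean TPM over both libraries, for ZNF genes with a KRAB domain (n = 348), ZNF genes without (n = 163) and other transcription factor genes (n = 353); the stacked colours are the 4 ranges of mean TPM. 21.3% of the KRAB genes, 52.1% of the other ZNF genes and 67.7% of the other factors lie at 5 TPM or more.

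The 159 members ran from 5.01 to 122.8 TPM with a median of 12.03. The 5 most abundant all lacked a KRAB domain. ZNF580 was at 121.5 TPM with control siRNA and 124.2 with POH1 siRNA, and ZNF692 at 97.3 and 124.2. ZNF185, whose protein has a LIM domain and binds actin, was at 104.7 and 94.1. These 3 genes were the highest members in the control library, while ZNF185 was sixth in the POH1 siRNA library. ZNF593, whose yeast counterpart helps export the large ribosomal subunit, was at 90.7 and 105.8 TPM. ZNF207 (BuGZ), which acts at kinetochores and the spindle, was at 88.6 and 102.0. The most abundant KRAB genes were lower, with ZNF7 at 58.4 and 41.2 TPM and ZNF707 at 40.9 and 54.5.

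The choice of members used the mean of both libraries, so a gene can enter through either one. With 5 TPM as the line, 139 members were at or above it in both libraries, 14 were under it with control siRNA only and 6 with POH1 siRNA only. Just inside were ZNF419 (4.03 TPM with control and 5.98 with POH1 siRNA), ZNF398 (5.01 and 5.02) and ZNF646 (3.79 and 6.26). Just outside were ZNF644 (6.73 and 3.25), ZNF547 (5.64 and 4.32) and ZNF747 (4.12 and 5.79). None of the 3 inside was lower with POH1 siRNA, and ZNF644 and ZNF547 outside were.

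The Spearman correlation between the 2 libraries was 0.90 across the 159 members and 0.94 across all 10121 genes averaging at least 5 TPM. Genes are not independent replicates. The difference of each gene is given below as log2((POH1 siRNA + 1)/(control siRNA + 1)), which understates the difference of low genes. Its median over the members was 0.21, with quartiles at -0.05 and 0.39 and a range from -0.89 to 1.74. 114 of the 159 were above 0, as were 6498 of all 10121 genes averaging at least 5 TPM. Over all 10121 genes averaging at least 5 TPM the median was 0.14, 0.07 under the members' median, and that gap was 0.03 after adjustment for GC content. The order depends on the filter: with genes from a mean of 1 TPM up, the median was 0.10 for 315 ZNF genes and 0.12 for all 15008 genes. The members' interquartile range was 0.44, the other transcription factors' also 0.44, and that of all genes 0.52. From 1 TPM up it was 0.58 for ZNF genes and 0.55 for all genes, so no closer packing of the ZNF genes held across filters.

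At 1.5-fold or more on this scale, 20 members (12.6%) were higher with POH1 siRNA and 8 (5.03%) lower, leaving 131 within that range. Over all genes of at least 5 TPM, 9.41% were that much higher and 8.45% that much lower, so the members' shares lay a few percentage points from the background. At 2-fold, 3 members were higher and 0 lower, against 1.82% and 2.89% of all genes. Scaling each library so that the median difference of all genes is 0, a shift of 0.14, gave 11 members higher and 15 lower. The excess of higher members thus depends on the scale. The shares of all genes under that scaling are not given here, so these 2 counts have no background beside them. Of the members past 1.5-fold, 71.4% were higher as deposited and 42.3% after that scaling.

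**Figure D2:**
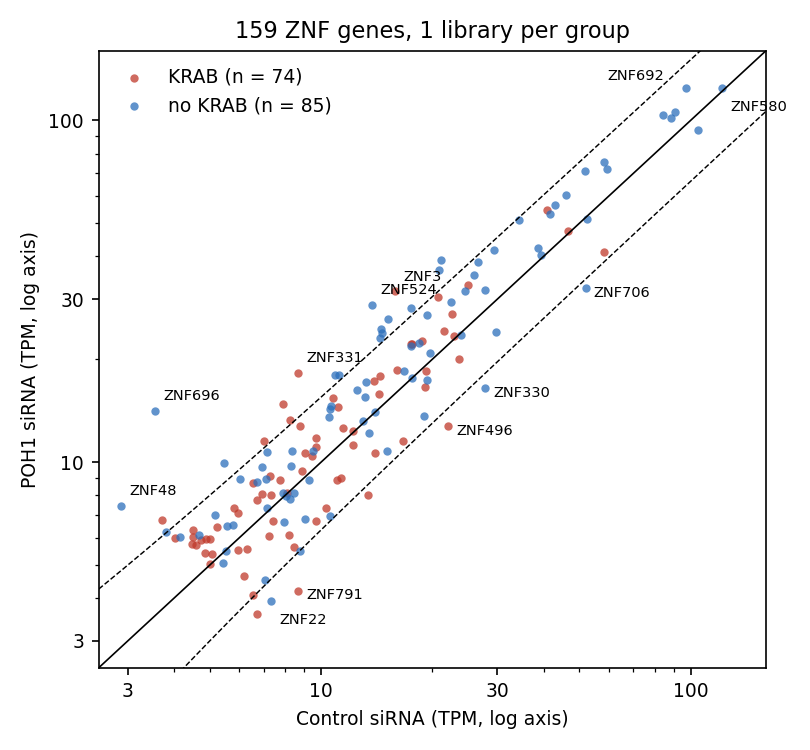
TPM of the 159 ZNF genes in the control siRNA library (x, log axis) and the POH1 siRNA library (y, log axis), 1 point per gene, red with a KRAB domain and blue without; the solid line marks equal levels and the dashed, curved lines 1.5-fold on TPM + 1. Most points (131) lie between the dashed lines, 20 lie above and 8 below.

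Genes without a KRAB domain made up 14 of the 20 higher members and 85 of all 159 members. ZNF696 had the largest difference, from 3.55 TPM with control siRNA to 14.2 with POH1 siRNA (log2 difference 1.74). ZNF48 was at 2.88 and 7.46 TPM (1.12), and ZNF524 at 13.7 and 28.9 (1.02). These were the 3 members at 2-fold or more, and ZNF696 and ZNF48 were under 5 TPM in the control library. So were ZNF500 and ZNF646 among the higher members, and ZNF791, ZNF548 and ZNF22 among the lower were under 5 TPM with POH1 siRNA, so these genes reached the line only through the library where they were high. ZNF384, a factor known from gene fusions in acute leukaemia, was at 21.1 and 38.9 TPM (0.85). ZNF341, which drives STAT3 transcription, was at 5.45 and 9.94 (0.76). ZNF217, an oncogene of the 20q13 amplicon whose protein works with CtBP and LSD1, was at 10.9 and 18.0 (0.68).

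ZNF532 was at 15.2 TPM with control siRNA and 26.2 with POH1 siRNA (0.75). Its protein joins those of ZNF592 and ZNF687 in a complex with the chromatin reader ZMYND8, and the other two were looked up after their values were seen. ZNF592 was at 7.13 and 10.7 TPM (0.52) and ZNF687 at 19.4 and 17.4 (-0.15), so ZNF687 differed in the other direction from its partners. The rest of the 14 were ZNF395, ZNF142, ZNF512B, ZNF664 and ZNF646, with differences from 0.60 to 0.71, and the SCAN genes ZNF444 and ZNF174.

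Among the 74 KRAB members 6 (8.11%) were at least 1.5-fold higher, against 9.41% of all genes of at least 5 TPM. ZNF331, an imprinted gene studied as a tumour suppressor candidate, was at 8.69 TPM with control siRNA and 18.3 with POH1 siRNA (0.99). ZNF3 was at 15.9 and 31.6 TPM (0.95), and ZNF875 at 7.87 and 14.8 (0.84). ZNF500, which has both KRAB and SCAN domains, was at 3.72 and 6.77 (0.72). ZNF71 and ZNF337 were the other two, at 0.65 and 0.63. In all 6 the POH1 siRNA library was the higher by 1.61-fold or more in plain TPM.

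The 8 lower members comprised 4 with KRAB and 4 without. ZNF791 was at 8.64 TPM with control siRNA and 4.20 with POH1 siRNA (-0.89), ZNF548 at 6.71 and 3.58 (-0.75), and ZNF211 at 13.4 and 8.02 (-0.68). All 3 are KRAB genes of chromosome 19. ZNF496, a KRAB and SCAN gene of chromosome 1, was at 22.0 and 12.7 TPM (-0.75). ZNF22, without KRAB, was at 7.30 and 3.91 TPM (-0.76), and ZNF330, which encodes a nucleolar protein with no C2H2 match, at 27.8 and 16.4 (-0.72). ZNF706 was at 52.0 and 32.2 (-0.67), and ZNF146 (OZF), built of little but fingers, at 8.78 and 5.51 (-0.59). Next came ZNF416 (6.54 and 4.08 TPM, -0.57) and ZNF32 (7.06 and 4.51, -0.55), just short of 1.5-fold on this scale.

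**Figure D3:**
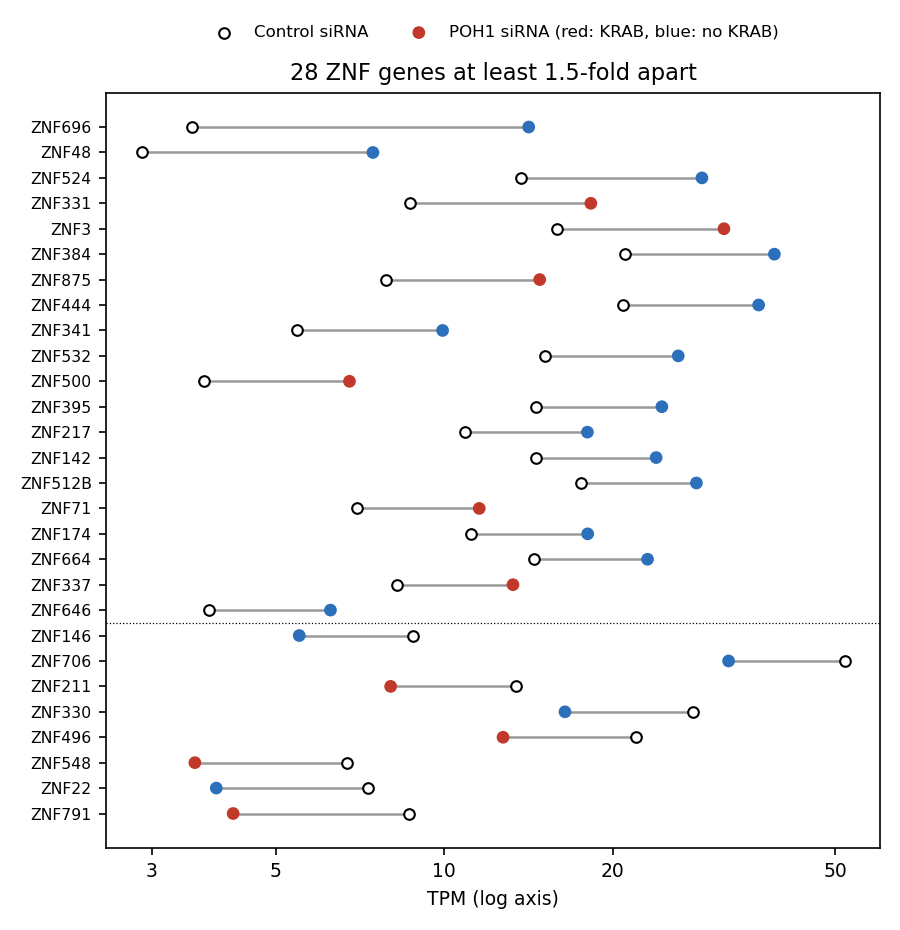
TPM (log axis) of the 28 ZNF genes at least 1.5-fold apart, 1 row per gene, with open circles for control siRNA and filled circles for POH1 siRNA (red with a KRAB domain, blue without). The 8 lower genes lie under the dotted line and the 20 higher genes above it, with ZNF696 (3.55 and 14.2 TPM) the farthest apart.

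By domain, the 74 KRAB members had a median difference of 0.18, with 6 (8.11%) higher and 4 (5.41%) lower. The 85 without KRAB had a median of 0.29, with 14 (16.5%) higher and 4 (4.71%) lower. Over all genes of at least 5 TPM these shares were 9.41% and 8.45%. The gap between the medians of the KRAB and other members was -0.12. It was -0.03 after each gene's difference was set against genes of like GC content, and -0.01 among the 108 members that overlap no other gene of at least 1 TPM, so its size depended on these settings. The 11 SCAN genes had a median of 0.26, with 3 higher (ZNF444, ZNF500 and ZNF174) and 1 lower (ZNF496). ZNF444 was at 20.9 and 36.5 TPM, ZNF174 at 11.2 and 18.1, and ZNF274, whose KRAB protein brings SETDB1 to other ZNF genes, at 10.7 and 15.4. In the other direction, and also chosen after the values were seen, ZNF75A was at 8.44 and 5.66 TPM (-0.50) and ZNF394 at 23.7 and 20.1 (-0.23).

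KRAB genes below the 5 TPM line differed in both directions, with shares not far from the background. Of the 117 KRAB genes with a mean of 1 to under 5 TPM, 8 (6.84%) were at least 1.5-fold higher and 13 (11.1%) lower, with a median difference of -0.06 and 54 above 0. Of the 39 other ZNF genes in that range, 4 were higher and 4 lower, with a median of 0.05. All 4887 genes in that range had a median of 0.06 and 2684 above 0, with 11.9% higher and 9.78% lower. The GC content of the ZNF genes in that range had a median of 46.1%, against 54.3% for the members, and its part in these counts was not tested.

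ZNF genes and other transcription factors were compared at like abundance. Like abundance was taken as 5 to 43.5 TPM, the upper bound being the 90th percentile of the members' means. The lists were not matched further inside that range. The median of the mean levels there was 10.4 TPM for the ZNF genes and 14.2 for the other factors. In that range 143 ZNF genes had a median of 0.21, with 20 (13.99%) higher and 8 (5.59%) lower. The 178 other factors had a median of 0.30, with 35 (19.7%) higher and 5 (2.81%) lower, and of 5991 protein-coding genes in that range 10.7% were higher and 8.81% lower. The gap of -0.09 between the medians has no replicate error to be set against, and it was not of the same size at every level. From 5 to 10 TPM the medians were 0.16 (69 ZNF genes) and 0.19 (60 factors). From 10 to 20 TPM they were 0.22 and 0.31, and from 20 to 43.5 TPM 0.36 and 0.37. The shares of higher genes did not keep 1 order: from 10 to 20 TPM 8 of 45 ZNF genes (17.8%) and 7 of 55 factors (12.7%) were higher, and from 5 to 10 TPM 6 ZNF genes (8.70%) and 13 factors (21.7%).

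The factors named next are the ends of that list, picked by the size of their difference. That they lie farther out than most ZNF genes follows from this choice and does not set the 2 lists apart. HOXB6, a homeobox gene, was at 7.58 TPM with control siRNA and 20.7 with POH1 siRNA, ARID3B at 9.21 and 24.0, and KLF6 at 7.41 and 18.2. At the lower end MAFF, a small MAF protein gene, was at 59.5 and 13.3 TPM (-2.08), SP3 at 14.6 and 5.36 (-1.30), and RBPJ, the DNA-binding partner of Notch, at 11.6 and 4.37 (-1.24). No ZNF member was 2-fold lower on the log2(TPM + 1) scale. Only ZNF696 lay above HOXB6, at 1.74 against 1.34.

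**Figure D4:**
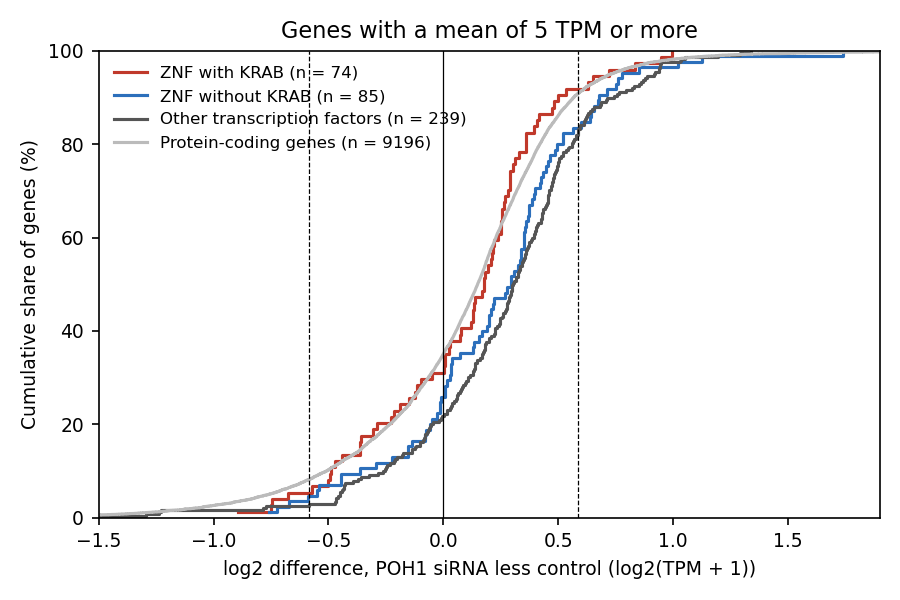
Cumulative share of genes (%) against the log2 difference between the libraries, for ZNF genes with KRAB (n = 74), without KRAB (n = 85), other transcription factor genes (n = 239) and all protein-coding genes (n = 9196) of at least 5 TPM; dashed lines mark 1.5-fold. The curves cross 50% at 0.18, 0.29, 0.30 and 0.15.

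Differences followed the GC content of the transcripts. Across the 159 members the Spearman correlation of the log2 difference with GC content was 0.43, across the KRAB members 0.19, across those without KRAB 0.50 and across all protein-coding genes of at least 5 TPM 0.46. These are correlations across genes of the same 2 libraries. Members at or under 45% GC had a median difference of -0.07 (16 genes), those from 55 to 60% one of 0.20 (27 genes), and those over 65% one of 0.37 (14 genes). ZNF22 and ZNF706 are among the GC-poor members, at 41.3% and 41.7%, and ZNF524 and ZNF444 among the GC-rich, at 66.1% and 67.7%. ZNF217 goes the other way, higher at 44.1% GC. The number of fingers had no such relation, with a Spearman correlation of 0.01. Set against genes of like GC content, the members' median was 0.17 and that of all protein-coding genes 0.15, and ZNF696 still stood at 1.55. The part of GC content in the single differences was not tested.

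**Figure D5:**
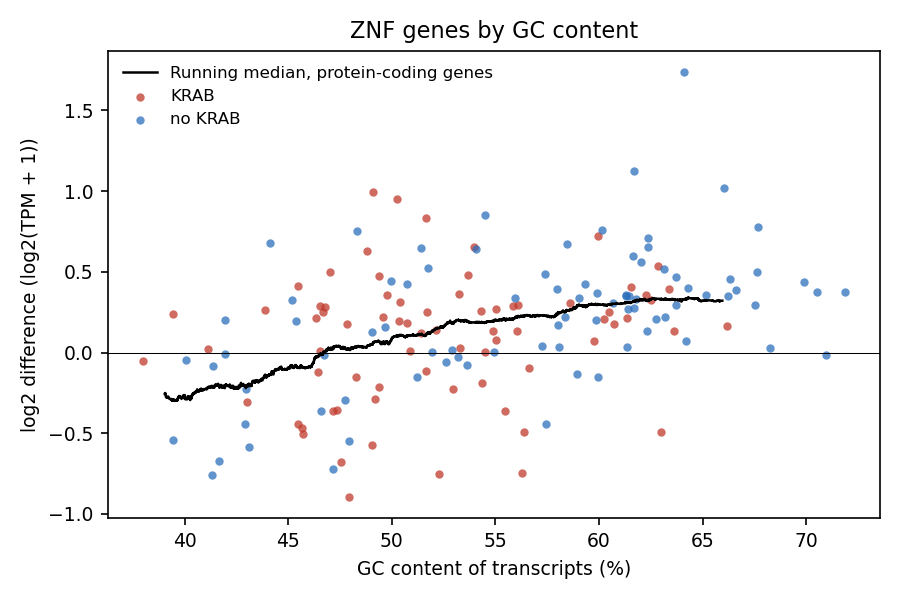
log2 difference between the libraries (log2(TPM + 1)) against the GC content (%) of each ZNF gene's transcripts, red with a KRAB domain and blue without; the black line is the running median of protein-coding genes. Members over 65% GC have a median of 0.37 and those at or under 45% one of -0.07.

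Chromosome 19, where KRAB genes stand in large tandem clusters, holds 247 of the 511 ZNF genes, but only 53 of these (21.5%) reached 5 TPM. On chromosome 16 it was 20 of 30 (66.7%) and on chromosome 7 it was 16 of 35 (45.7%). The 53 members of chromosome 19 had a median difference of 0.27, with 5 (9.43%) higher and 4 (7.55%) lower. All 709 protein-coding genes of that chromosome at 5 TPM or more had a median of 0.28, with 11.7% higher and 1.41% lower. The 20 members of chromosome 16 had a median of 0.30, with 4 higher and 0 lower, against 0.20 for its protein-coding genes, of which 11.4% were higher and 4.01% lower. On chromosome 20 the 7 members had a median of 0.63 against 0.16, where 33 of the 300 protein-coding genes were higher and 15 lower, and ZNF341, ZNF217, ZNF512B and ZNF337 were all at least 1.5-fold higher. With 7 genes that remains a description.

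Members that stand next to each other in the RefSeq gene order formed 18 runs of 46 genes. In 11 runs all members were above 0. Gene by gene, 114 of all 159 members and 6498 of 10121 genes of at least 5 TPM were above 0. Such a share of single genes cannot be set against a share of whole runs. The longest run, of 6 genes on chromosome 7 (ZNF398, ZNF282, ZNF212, ZNF783, ZNF777 and ZNF746), had differences from 0.00 to 0.39. In the chromosome 16 run of ZNF764, ZNF688, ZNF785 and ZNF689 they lay between 0.21 and 0.31. The chromosome 19 run of ZNF524, ZNF865, ZNF784, ZNF581 and ZNF580 was wider, from 0.03 to 1.02. Neighbours therefore did not always share the size of the difference.

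Exons of 51 members overlap those of another gene of at least 1 TPM, 41 of them on the opposite strand, and whether reads were counted by strand was not given in the sources used here. Among the 28 genes past 1.5-fold, 11 have such an overlap. ZNF395 shares 41.7% of its 50-base windows with FBXO16 (16.2 and 12.7 TPM), so how reads were split between them bears on its value of 14.6 and 24.5. ZNF337 was at 8.23 and 13.3 TPM while its antisense partner ZNF337-AS1 was at 13.3 and 6.83. ZNF646 overlaps ENSG00000255439 (6.68 and 0.674 TPM), and ZNF3 overlaps ZSCAN21 (10.4 and 10.01). ZNF696, ZNF331 and ZNF875 have no such overlap, nor have ZNF791, ZNF22 and ZNF496.

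The promoters of the members held the ETS core, the site of factors such as GABPA and ELK1, more often than other promoters did. Of the 159 members 132 had a promoter in the RefSeq table, and 53 of them (40.2%) held CCGGAAG on either strand. The share was 20.7% over 7483 promoters of protein-coding genes of at least 5 TPM, 10.7% over all 27305 promoters and 7.69% over 182 of the other transcription factors. It was 44.1% with KRAB and 37.0% without. The GC box GGGCGG was in 68.2% of the members' promoters, against 72.8%, and the TATA box TATAAA in 1.52%, against 5.23%. CCAAT was in 39.4% of them, against 37.1%, and more often in members with KRAB (54.2%) than in those without (27.4%).

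Members with and without the ETS core had close medians. The 53 members that hold it had a median of 0.22, with 5 higher and 3 lower, and the 79 that do not had a median of 0.20, with 11 higher and 3 lower. TACATTTCCCAGA, searched after the ZNF331 promoter had been seen, was in none of the other 131 members' promoters in the table and in 0.143% of all promoters. A match is a description of these letters only.

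The partners of the KRAB domain differed in both directions. Of 43 co-repressor genes, 35 reached 5 TPM, with a median difference of 0.03 (all genes 0.14) and a range from -1.04 to 0.67. At least 1.5-fold higher were 3 (8.57%) and lower 5 (14.3%), against 9.41% and 8.45% of all genes. TRIM28, the scaffold that KRAB domains bind, was at 333 TPM with control siRNA and 326 with POH1 siRNA (-0.03), and SETDB1, its H3K9 methyltransferase, at 34.6 and 38.9 (0.17). The higher genes were EHMT1 (35.0 and 56.3 TPM), of the H3K9 methyltransferases, and the NuRD genes MTA1 (122 and 191) and GATAD2A (46.7 and 72.3). The lower genes included MPHOSPH8 (29.1 and 17.3 TPM) and PPHLN1 (43.0 and 20.4), both of the HUSH complex. The other lower genes were SUV39H1, an H3K9 methyltransferase (18.1 and 8.79), and the deacetylase complex genes HDAC2 (12.7 and 6.96) and RBBP4 (19.8 and 12.5). Genes of deacetylase complexes and H3K9 methyltransferase genes thus lay on either side, while both HUSH genes past 1.5-fold were lower. TASOR, also of HUSH but with a mean under 5 TPM, was at 3.80 and 5.09 TPM (0.34). TRIM28 stood above every ZNF gene in level.

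Members with other known roles were chosen for this paragraph after their values were seen. ZNF598, the ubiquitin ligase that marks collided ribosomes, was at 46.0 TPM with control siRNA and 60.5 with POH1 siRNA (0.39), and ZNF622, which acts in maturation of the large ribosomal subunit, at 52.6 and 51.6 (-0.03). ZNF410, the activator of the NuRD gene CHD4, was at 29.7 and 24.1 TPM (-0.29), while CHD4 was at 87.6 and 95.3. Of ZNF410's 50-base windows 85.5% also occur in another gene model, so its level is uncertain. ZNF503 and ZNF703, repressors of the NET family, were at 34.2 and 51.1 TPM (0.56) and at 24.5 and 31.7 (0.36). ZNF473, needed to process histone messages, was at 19.1 and 16.6 (-0.19).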

How the data were processed

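PC3 RNA from 2 libraries was analysed, 1 with control siRNA and 1 with POH1 siRNA. The authors deposited gene TPM values, which were used as given. CASAVA, HISAT2 and hg19 are named per the submitters' processing notes; the quantifier, its annotation and its strand setting were not given in the sources used here. TPM keeps no read depth, so no counting interval is given. Differences are log2 of TPM with a pseudocount of 1, over genes averaging at least 5 TPM, and no p-value was computed. Gene names and types, GC content and overlaps came from GENCODE 29 (GRCh38), and promoters and gene order from RefSeq GRCh38.p14. Because no protein table was at hand, KRAB and SCAN domains were searched in translated GENCODE coding sequences with pyhmmer 0.12.3, starting from the first 75 residues of ZNF10 and from SCAND1. That search was added after the values were seen. Calculations used Python 3.11.15 with pandas 2.3.3 and numpy 2.4.6, and were tested on simulated data. Members and gene lists were chosen with earlier results of these data known. Named genes were the 10 highest and 10 lowest members, the 5 most abundant, the 3 on either side of the line, the 3 highest and lowest other factors, and the co-repressors past 1.5-fold. Further genes, such as ZNF217, ZNF274, ZNF174, ZNF7 and ZNF707, were chosen after their values were seen. Searches for NRF1 and ZNF143 motifs were also run and are not reported.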

Additional observations from a re-analysis of the deposited data

How the results depend on the processing

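With 1 library per group, none of these values has a replicate error, and TPM hides depth. No paired analysis was possible because each group holds 1 library. The members' median of 0.21 became 0.23 with a pseudocount of 0.1 and 0.16 with 5. It was 0.044 over the 431 ZNF genes with no filter on level, 0.10 over the 315 of at least 1 TPM and 0.27 over the 90 of at least 10 TPM. Median scaling gave 0.084, trimmed mean scaling 0.10, leaving out mitochondrial and the 50 most abundant genes 0.15, and GC adjustment 0.17. Without the 21 members that share at least 10% of their 50-base windows with another gene, a choice made after seeing the data, it was 0.20. The interquartile range of 0.44 became 0.46 and 0.36 with pseudocounts of 0.1 and 5, 0.48, 0.58 and 0.42 with no filter, 1 TPM and 10 TPM, 0.43 under either scaling, 0.45 with GC adjustment, 0.42 without the 51 overlapping members and 0.41 without shared windows.

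The 20 higher members became 10 with a pseudocount of 5, 36 with no filter, 32 at 1 TPM, 11 with median scaling, 12 with trimmed mean scaling and 10 without overlapping members. The 8 lower members became 3 with a pseudocount of 5, 28 with no filter, 25 at 1 TPM, 4 at 10 TPM, 15 with median scaling, 14 with trimmed mean scaling and 5 with GC adjustment. The filter and overlap settings test other numbers of genes, and for the other settings the cause was not tested. At 1 TPM the shares of ZNF genes were 10.2% higher and 7.94% lower, against 10.2% and 8.88% of all genes. Without overlapping members 10 of 108 were higher and 7 lower, where 9.41% and 8.45% of all genes of at least 5 TPM were. For the remaining settings no share of all genes is given here.

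The gap of -0.09 to the other factors became -0.096 and -0.083 with pseudocounts of 0.1 and 5, -0.15 with no filter, -0.16 at 1 TPM, -0.075 at 10 TPM, -0.079 with GC adjustment and -0.096 without shared windows. The gap of -0.12 between members with and without KRAB, computed only after seeing the data, became -0.10 with either pseudocount, -0.13 with no filter, -0.18 at 1 TPM, -0.13 at 10 TPM and -0.11 under median scaling, trimmed mean scaling and without the most abundant genes. It was -0.033 with GC adjustment, -0.012 without overlapping members and -0.038 without shared windows. Neither gap changed sign under these 12 settings. The balance of higher and lower members did turn over, with 11 higher and 15 lower under median scaling and 12 and 14 under trimmed mean scaling. No share of all genes is given under either scaling, so that turnover is not set against the background. Adding read-through models moved none of these results.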

Other observations

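Other C2H2 finger genes, those of the ZBTB, ZSCAN, ZKSCAN and ZFP series, had 37 genes at 5 TPM or more, with a median log2 difference of 0.40. At least 1.5-fold higher with POH1 siRNA were 10 (27.0%) and lower 2 (5.41%), against 9.41% and 8.45% of all genes of at least 5 TPM. The median of these other series lay above that of the ZNF members, by 0.18 on the log2 scale, with no replicate to set that against. These series were set beside the ZNF genes after the values were seen.

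Of the antisense and divergent transcripts named after members, 7 reached a mean of 1 TPM. ZNF503-AS2 was at 10.7 TPM with control siRNA and 19.8 with POH1 siRNA beside ZNF503 at 34.2 and 51.1. ZNF687-AS1 was at 1.88 and 4.43 beside ZNF687 at 19.4 and 17.4. ZNF584-DT was at 12.7 and 18.5, and ZNF691-DT at 3.06 and 3.94. ZNF710-AS1 (3.11 and 3.05) and ZNF778-DT (3.23 and 3.19) were nearly level, and ZNF337-AS1, given above, was the 1 that was clearly lower.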
